A study of Mus musculus with 6 samples.

Results

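The genes described here are 10 genes of the enteroendocrine cells, the hormone-secreting cells scattered through the gut lining: the hormone genes Gcg, Pyy, Cck, Insl5, Sst and Nts, the granule protein genes Chga and Chgb, the serotonin-synthesis gene Tph1 and the transcription factor gene Neurod1. Every probe set that the array's annotation gives 1 of these symbols was taken, which gave 11 probe sets (Neurod1 has 2) out of 22626 that are not controls, or 10 of 12393 named genes. The samples were 6 pieces of whole proximal colon, 1 array each, from 3 wild-type mice (genotype wt) and 3 mice (genotype Mthfd1/+) with 1 copy of Mthfd1, a gene of cytosolic folate metabolism, disrupted by a gene trap. All mice were 8 weeks old and had been fed the AIN-93G control diet for 5 weeks after weaning. The trapped mice came from the BayGenomics gene-trap collection, and the trapped allele is carried by the whole animal rather than by the gut alone. The sources used here do not give the strain, the sex or the site of the trap.

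Enteroendocrine cells are rare epithelial cells that arise from the crypt stem cells, sense the contents of the gut and release peptides or serotonin from dense-core granules. In the colon the main kinds are L cells, which make peptide YY, glucagon-like peptides and INSL5, enterochromaffin cells, which make serotonin through TPH1, and D cells, which make somatostatin. Neurotensin and cholecystokinin are better known from the small intestine, chromogranins pack the granules, and NEUROD1 is a helix-loop-helix transcription factor that acts late in the differentiation of these cells.

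The trapped gene separated the genotypes. Mthfd1 signal at its brighter probe set was 949.9, 838.6 and 881.4 in the wild-type mice, in order of replicate, and 453.1, 509.6 and 549.4 in the heterozygous mice (log2 fold change -0.80, SE 0.12; adjusted p = 0.121, limma). The groups did not overlap, and the exact two-sided permutation p was 0.1, the smallest that 3 against 3 arrays can give. The sources used here do not say whether these probes lie beyond the trap. Signal is in the arrays' linear intensity units, each array scaled by the authors to a common level, with a median over probe sets of 156.8 to 168.2. A log2 fold change is heterozygous minus wild-type of log2(signal + 16), which understates changes of dim genes. The samples' titles call them biological replicates, and p-values set the difference between genotypes against the spread between these 6 samples.

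No enteroendocrine gene passed the test between genotypes, and the members instead varied together from mouse to mouse. Of the 10 probe sets bright enough to test (all but Cck), 0 had a limma adjusted p under 0.05, against 0% of the 13576 probe sets tested. At an unadjusted p under 0.05 the members also gave 0, against 5.69% of all tested. The signals of the wild-type and heterozygous arrays overlapped for 11 of 11 probe sets, against a background of 10.4% of tested probe sets without overlap. By direction, 7 of the 11 fold changes were below 0 and 4 above, with a median of -0.11 on the log2 scale, where the median over all tested probe sets was 0.0023. Single mice decided this direction: 1 of 11 was below 0 without wild-type replicate 3 (median 0.087), and 11 of 11 without heterozygous replicate 1 (median -0.26) or wild-type replicate 2 (median -0.19). The mice that set the spread were wild-type replicate 3 and heterozygous replicate 1, which held the 2 highest signals for 9 of the 11 probe sets, a pattern present in 12.4% of tested probe sets. The samples were whole tissue, in which fewer cells of a type and less RNA per cell cannot be told apart.

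**Figure D1:**
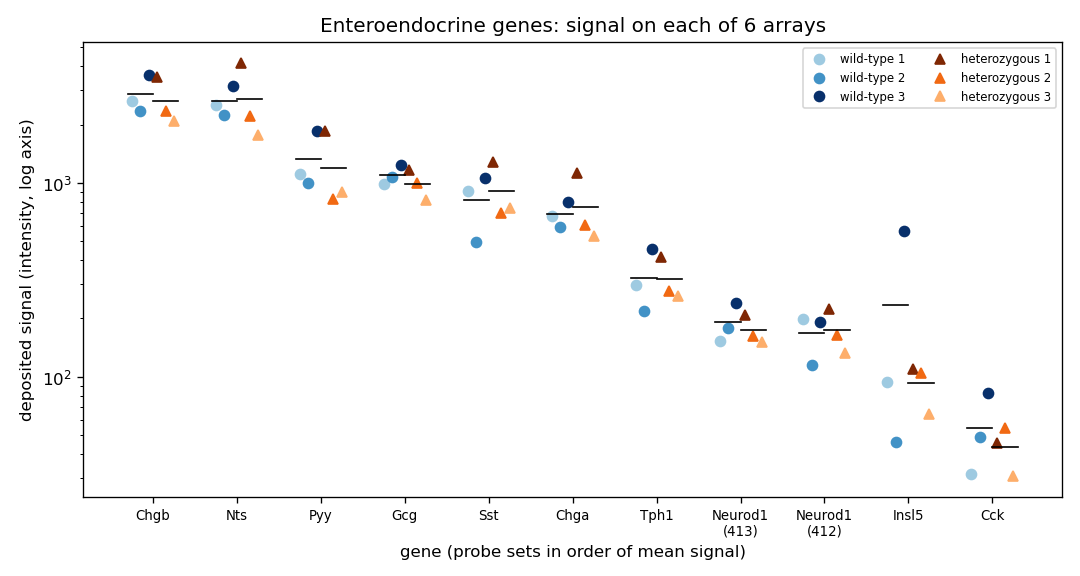
Signal (linear intensity, log axis) of each enteroendocrine probe set in each of the 6 arrays, ordered by mean signal from Chgb to Cck, with wild-type and heterozygous arrays marked apart and the bar at each genotype's mean. The numbers beside Neurod1 are the last 3 digits of its probe set IDs. Chgb and Nts lie highest, Cck lowest, the genotypes overlap for each probe set, and Insl5 has 1 wild-type array, at 564, far above the other 5.

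The members' promoter sequence was examined in RefSeq's table for GRCm38.p6, which matched 10 of 10 genes. It gave 13 entries of 300 bases each, from 250 before the gene's start to 50 after. Searched on both strands were CANNTG, the E-box core that helix-loop-helix factors such as NEUROD1 recognise, and TGACG, the core of the cyclic AMP response element, whose full form is TGACGTCA and holds TGACG on each strand. An E-box core was present in 12 of the 13 entries (10 of 10 genes) and in 72.3% of all 32851 entries. The TGACG core was present in 7 of 13 entries (6 of 10 genes) and in 20.8% of all entries. The full TGACGTCA was present in 2 of 13 entries, those of Chgb and Sst, and in 1.79% of all entries. These are descriptions of letters in a window and not of binding. The 250 bases before the start are printed for Chgb and Sst, which hold the full element, for Chga, which holds the core alone, and for Gcg, which holds no TGACG. Pyy, Insl5 and Neurod1 hold no TGACG either. Any link between these motifs and the spread between mice was not tested. Capitals mark E-box cores and TGACG cores (CGTCA where on the other strand), the sequences run 5′ to 3′ on the gene's strand, and the last base is the one before the start. Chgb lies at chr2:132781392-132781641, plus strand; Sst at chr16:23890845-23891094, minus strand; Chga at chr12:102554691-102554940, plus strand; Gcg at chr2:62483654-62483903, minus strand.
Chgb: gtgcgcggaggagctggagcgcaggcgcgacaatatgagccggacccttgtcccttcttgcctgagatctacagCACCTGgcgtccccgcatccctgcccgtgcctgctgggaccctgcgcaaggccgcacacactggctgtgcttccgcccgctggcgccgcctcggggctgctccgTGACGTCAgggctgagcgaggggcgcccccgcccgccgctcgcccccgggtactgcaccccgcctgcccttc
Sst: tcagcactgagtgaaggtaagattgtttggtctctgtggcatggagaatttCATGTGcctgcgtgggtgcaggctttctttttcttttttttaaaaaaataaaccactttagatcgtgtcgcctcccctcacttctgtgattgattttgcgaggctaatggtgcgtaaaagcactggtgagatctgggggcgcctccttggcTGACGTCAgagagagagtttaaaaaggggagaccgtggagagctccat
Chga: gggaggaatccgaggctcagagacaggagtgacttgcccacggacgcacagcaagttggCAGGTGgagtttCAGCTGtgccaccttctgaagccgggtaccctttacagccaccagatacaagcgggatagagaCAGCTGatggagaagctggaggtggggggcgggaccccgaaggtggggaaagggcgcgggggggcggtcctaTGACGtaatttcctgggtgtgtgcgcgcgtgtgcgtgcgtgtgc
Gcg: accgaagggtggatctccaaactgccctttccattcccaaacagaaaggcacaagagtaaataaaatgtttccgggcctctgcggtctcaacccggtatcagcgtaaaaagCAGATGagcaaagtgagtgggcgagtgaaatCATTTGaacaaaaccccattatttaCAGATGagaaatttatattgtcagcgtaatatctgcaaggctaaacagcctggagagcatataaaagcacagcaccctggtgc
Counting the start as 0, TGACGTCA begins at -72 in Chgb and at -48 in Sst, the TGACG core begins at -44 in Chga, and the form CAGATG of the E-box begins at -139 and -83 in Gcg. CAGATG was in 3 of the 13 entries and in 17.2% of all entries.

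By mean signal over the 6 arrays the members ran from Chgb (2765) and Nts (2677) through Pyy (1260.4), Gcg (1047), Sst (865) and Chga (722) to Tph1 (322), Neurod1 (183 and 171 at its probe sets), Insl5 (164) and Cck (48.8). Probe sets bind with different strength and signals are not given per transcript length, so this is an order of signals and not of transcript numbers. Among neighbours in the order, the ranges over 6 arrays were apart for Chga and Tph1 only. Nts was above Pyy, and Tph1 above the next Neurod1 probe set, in 6 of 6 arrays, although these ranges overlapped. Elsewhere neighbours overlapped and traded places in at least 1 array, so Chgb and Nts, or Pyy and Gcg, have no settled order. Among all probe sets of an array, Chgb stood between the 92.7th and 96.1th percentile and Cck between the 21.6th and 36.4th. All 11 probe sets had an SD of log2 signal over the 6 arrays above the median of tested probe sets, 0.184.

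Nts, which encodes the gut peptide neurotensin, was the brightest hormone gene among the members. Its signal was 2537.9, 2232.7 and 3164.4 in wild-type replicates 1, 2 and 3 and 4155.6, 2209.6 and 1759.3 in heterozygous replicates 1, 2 and 3. Heterozygous colon held both the highest and the lowest mouse, and the wild-type values lay between them. The means were 2645 ± 475 (SD, n = 3) and 2708 ± 1274 (SD, n = 3), with a log2 fold change of -0.049 (95% interval -0.67 to 0.57; exact permutation p = 0.9). Without heterozygous replicate 1, its highest array, the groups of Nts did not overlap, with a log2 fold change of -0.41 (adjusted p = 0.661, limma). Groups of fewer arrays separate more readily, and the share of all probe sets without overlap was not counted in that run.

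Pyy encodes peptide YY, which L cells release after meals and which slows gut transit. Signal was 1114.3, 998.0 and 1864.4 in wild-type and 1864.9, 826.2 and 894.6 in heterozygous mice, in order of replicate. Wild-type replicate 3 and heterozygous replicate 1 were nearly equal, and the other 4 arrays lay well under them. The log2 fold change was -0.19 (SE 0.32; 95% interval -0.91 to 0.53; exact permutation p = 0.6).

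Gcg, the proglucagon gene from which L cells cut glucagon-like peptides, was the steadiest of the 6 hormone genes among the members. Its signal was 993.1, 1077.6 and 1235.5 in wild-type and 1160.3, 998.2 and 819.3 in heterozygous mice. The highest mouse exceeded the lowest by 1.51-fold, the SD of log2 signal over the 6 arrays was 0.204, the 58.0th percentile of tested probe sets, and the genotypes overlapped. The means were 1102 ± 123 and 993 ± 171 (SD, n = 3 each), a log2 fold change of -0.16 (SE 0.15; adjusted p = 0.937, limma). Its 95% interval corresponds to 0.708 to 1.14 times the wild-type level, the narrowest of the members tested. The fold change stayed below 0 in 17 of 17 alternative settings, but its size depended on single mice, from -0.27 without heterozygous replicate 1 to -0.073 without wild-type replicate 3 and -0.028 without heterozygous replicate 3.

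Sst encodes somatostatin, the D-cell peptide that restrains other gut hormones, and is also made by enteric neurons. Signal was 905.2, 494.5 and 1055.4 in wild-type and 1290.8, 698.6 and 744.3 in heterozygous mice. The lowest value was in wild-type replicate 2, and the groups overlapped across most of their range. The log2 fold change was 0.17 (SE 0.30; 95% interval -0.52 to 0.85; exact permutation p = 0.8).

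Insl5, the relaxin-family peptide gene of colonic L cells, varied most. Signal was 94.2, 45.9 and 564.0 in wild-type and 110.3, 104.1 and 64.5 in heterozygous mice. A single mouse, wild-type replicate 3, stood far above the other 5, and the highest array exceeded the lowest by 12.3-fold, with an SD of log2 signal over the arrays at the 99.7th percentile of tested probe sets. The wild-type mean of 235 ± 286 (SD, n = 3) therefore describes no typical animal, against 93.0 ± 24.9 (SD, n = 3) in heterozygous colon. The log2 fold change was -0.57 (SE 0.67; 95% interval -2.08 to 0.95; adjusted p = 0.951, limma), and it was 0.37 without wild-type replicate 3.

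Cck, the cholecystokinin gene of the upper small intestine, was dim. Signal was 31.4, 48.8 and 82.3 in wild-type and 45.4, 54.3 and 30.7 in heterozygous mice, below the 40th-percentile filter on mean log2 signal, so Cck was not tested with the others. Nearest to that filter, which stood at a mean log2(signal + 16) of 6.77, were Insl5, tested at 7.02, and Cck, left out at 5.97. Insl5 passed only through wild-type replicate 3, since its mean over the other 5 arrays was 6.59, so its adjusted p and its percentile among tested probe sets rest on a filter that this array decided. The exact permutation p for Cck was 0.6, and with no filter its limma adjusted p was 0.955.

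The granins order hormones into dense-core granules. Chgb, chromogranin B, had signal of 2660.7, 2349.7 and 3600.2 in wild-type and 3527.4, 2355.4 and 2096.4 in heterozygous mice. Chga, chromogranin A, had signal of 676.0, 591.3 and 797.7 in wild-type and 1128.2, 606.5 and 530.8 in heterozygous mice. Both genes had their 2 highest values in wild-type replicate 3 and heterozygous replicate 1, though which of these mice led differed between them. Chgb had a log2 fold change of -0.12 (SE 0.21; 95% interval -0.60 to 0.35) and Chga of 0.063 (SE 0.26; 95% interval -0.51 to 0.64). The adjusted p was 0.972 for Chgb and 0.987 for Chga (limma).

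Tph1 encodes tryptophan hydroxylase, the rate-limiting enzyme of serotonin synthesis in enterochromaffin cells. Signal was 298.8, 218.6 and 457.5 in wild-type and 414.4, 278.1 and 262.2 in heterozygous mice. The high mice were again wild-type replicate 3 and heterozygous replicate 1. The means, 325 ± 122 and 318 ± 83.7 (SD, n = 3 each), lay close together, with a log2 fold change of 0.0034 (SE 0.26; 95% interval -0.59 to 0.59; exact permutation p = 1.0).

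Neurod1 was read by 2 probe sets of like signal. The brighter gave 153.3, 178.9 and 240.1 in wild-type and 208.4, 162.7 and 152.1 in heterozygous mice. The dimmer gave 198.8, 115.7 and 191.9 in wild-type and 224.6, 164.1 and 132.1 in heterozygous mice. They disagreed on wild-type replicate 1, the lowest wild-type mouse by one and the highest by the other, and on the sign of the fold change (-0.11 with SE 0.20, and 0.042 with SE 0.24 on the log2 scale). Neither difference exceeded the spread between mice (adjusted p = 0.972 and 0.994, limma).

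**Figure D2:**
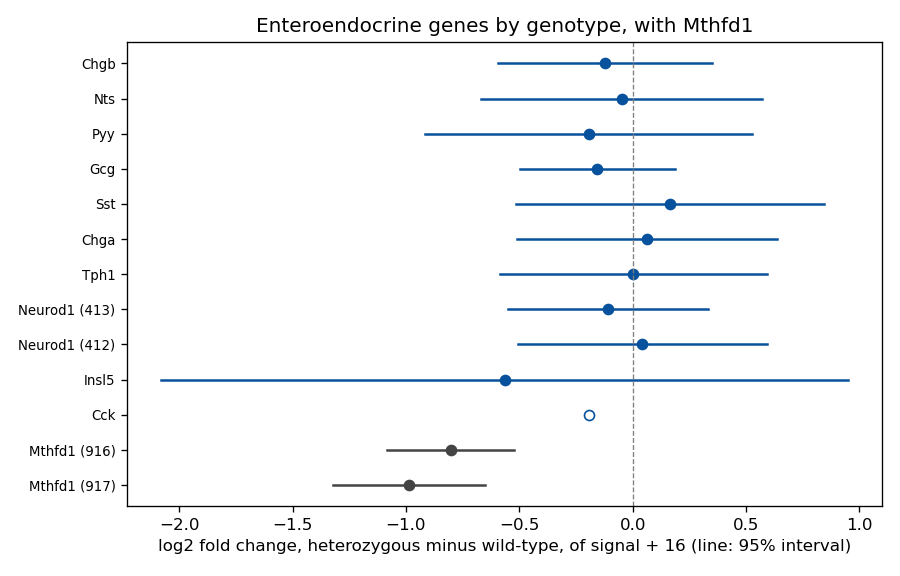
Log2 fold change of each enteroendocrine probe set, heterozygous minus wild-type, with its 95% interval where tested (horizontal axis, log2 units), Cck as an open point without one, and the Mthfd1 probe sets in grey. Intervals of all tested members cross 0, Gcg has the narrowest at -0.50 to 0.19 and Insl5 the widest at -2.08 to 0.95.

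Set against each probe set's own mean over the 6 arrays, the members' median was 0.39 log2 units in each of the 2 high mice. It was -0.057 and -0.24 in wild-type replicates 1 and 2, and -0.16 and -0.37 in heterozygous replicates 2 and 3. The highest of the 6 arrays was wild-type replicate 3 for 6 probe sets and heterozygous replicate 1 for the other 5, and the lowest was heterozygous replicate 3 for 6 and wild-type replicate 2 for 4. Over all tested probe sets, wild-type replicate 3 was highest for 22.5% and heterozygous replicate 1 for 14.7%. The exceptions to the shared pattern were the dimmer Neurod1 probe set, whose next highest array after heterozygous replicate 1 was wild-type replicate 1, and Cck, whose next highest was heterozygous replicate 2. Insl5 met the pattern only narrowly, at 110.3 in heterozygous replicate 1 against 104.1 in heterozygous replicate 2. Its centred value in heterozygous replicate 1 was -0.042, below its own mean. The members were measured in the same 6 libraries, so their agreement is a description of these mice.

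**Figure D3:**
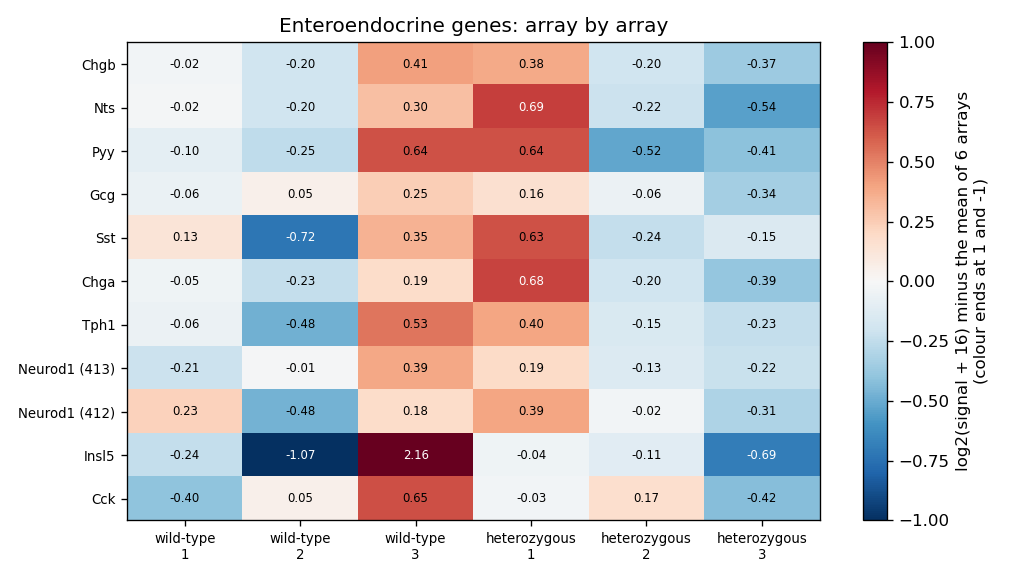
Log2 signal of each enteroendocrine probe set in each array minus that probe set's mean over the 6 arrays (colour scale, log2 units). The columns of wild-type replicate 3 and heterozygous replicate 1 have medians of 0.39, Insl5 in wild-type replicate 3 is the largest value at 2.16 (past the end of the colour scale), and Insl5 and Cck are near 0 in heterozygous replicate 1.

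Other cell types moved between the mice as well. Among 8 tested markers of small intestine, the ileal bile acid-binding protein gene Fabp6, named after its values were seen, read 1316.8, 5661.9 and 93.5 in wild-type replicates 1, 2 and 3, against 382.3, 5621.6 and 727.8 in the heterozygous mice. The apolipoprotein gene Apoa1 read 7711.8 in wild-type replicate 2 and only 29.5 and 43.0 in the mice where the members were highest. The mean log2 score of these markers was lowest in wild-type replicate 3 (-1.36) and heterozygous replicate 1 (-0.83), the mice with the highest member signals, and highest in wild-type replicate 2 (1.40) and heterozygous replicate 2 (0.94). The summed signal of the 11 markers on the array ran from 11336 to 39587 in wild-type and from 13764 to 31766 in heterozygous mice, and none was listed at 0. The log2 fold change was -0.25 for Slc10a2, -0.34 for Enpep and 0.030 for Fabp2. The covariate fit used a like score over all 11 markers on the array, those below the filter included. In that fit the members gave 0 with an unadjusted p under 0.05 (limma). Of the 11 member fold changes, 10 were then below 0, with a median of -0.15. The part of either score in the spread between mice was not tested.

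Markers of enteric neurons, which share granins and several peptides with enteroendocrine cells, had the same high mice. For 8 of 11 tested neuronal markers the 2 highest arrays were wild-type replicate 3 and heterozygous replicate 1, against 12.4% of all tested probe sets. The summed signal of the 14 on the array was 4057.9 and 4360.6 in these mice, against 2806.7 to 3353 in the other 4. Stmn2, a neuronal microtubule regulator, read 428.7 and 487.6 there and had a log2 fold change of 0.26 (SE 0.19), with 0.26 for Uchl1, 0.22 for Tubb3, 0.13 for Calb2 and -0.15 for Vip. Of the tested neuronal markers 10 had a fold change above 0 and 1 below, with a median of 0.13. Among them 0 had an unadjusted p under 0.05 (limma). Over all tested probe sets 49.3% were below 0, and 5.69% had an unadjusted p under 0.05. The part of neurons in the members' signal was not tested.

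Mast cells, another source of TPH1, and pancreas, another source of peptide hormones, were represented mostly by dim probe sets. Of 10 mast cell markers on the array 8 were below the filter, and the 2 tested differed in their high mice. Kit, a receptor gene of mast cells and also of the gut's pacemaker cells, read 463.0, 506.8 and 777.0 in wild-type and 627.3, 500.1 and 527.1 in heterozygous mice, with the same 2 high mice as Tph1. Mcpt2, a mucosal mast cell protease gene, read 189.1, 75.7 and 28.8 in wild-type and 100.8, 139.3 and 185.2 in heterozygous mice, lowest where Tph1 was highest. The summed signal of the 10 ran from 786.2 to 948.9 in wild-type and from 891.7 to 995.0 in heterozygous mice, and the part of mast cells in the Tph1 signal was not tested. Of 7 pancreas markers 6 were below the filter, and the elastase gene Cela1 was tested (log2 fold change -0.24, adjusted p = 0.904, limma). Its groups did not overlap, against 10.4% of all tested probe sets without overlap. The insulin gene Ins2, below the filter, did not overlap either, in the other direction. It read 26.7 to 33.3 in wild-type and 45.8 to 57.8 in heterozygous mice (log2 fold change 0.59). The sum of the 7 was 1068.1 to 1293.3 in wild-type and 930.5 to 1041.8 in heterozygous mice. Most of this sum was Cela1, at 854.3 to 1175.1 in the 6 arrays.

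The epithelial types that neighbour enteroendocrine cells were checked in the same way. Of 10 colon markers on the array 9 were tested and 0 had an unadjusted p under 0.05 (limma), while Hoxb13 was below the filter. Car1, a carbonic anhydrase gene of colonocytes and the brightest of them, was between 15442.6 and 19083.6 in the 6 arrays. The log2 fold change was 0.054 for the keratin gene Krt20, -0.24 for the chloride exchanger gene Slc26a3 and 0.42 for Hoxd10, with a limma adjusted p of at least 0.896. Goblet markers had fold changes below 0 for 7 of 7, against 49.3% of all tested probe sets. Their mean log2 score was 0.315 in wild-type replicate 3, but 0.033 and -0.059 in wild-type replicates 1 and 2. In the heterozygous mice it was -0.121, -0.069 and -0.099, and the direction without wild-type replicate 3 was not tested. Retnlb and Spdef had unadjusted p under 0.05, against 5.69% of all tested, with adjusted p of 0.752 and 0.874 (limma). The brightest goblet genes, Zg16 and Tff3, had log2 fold changes of -0.048 and -0.051. Of 3 tested tuft cell markers, Avil had an unadjusted p under 0.05, with an adjusted p of 0.860 (limma). Il17rb and Dclk1 had log2 fold changes of -0.31 and -0.21. The groups did not overlap for the goblet genes Retnlb and Zg16 and the tuft genes Avil and Il17rb. Over all tested probe sets 10.4% were without overlap. In wild-type replicate 3, where Insl5 was at 564.0, the water channel gene Aqp4 was at 2078.2, against 280.4 to 461.0 in the other 5 mice. Hoxb13, below the filter and given values here after they were seen, read 48.2 in that mouse and 3.3 to 4.5 in the other 5. The position of each piece along the colon was not tested.

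**Figure D4:**
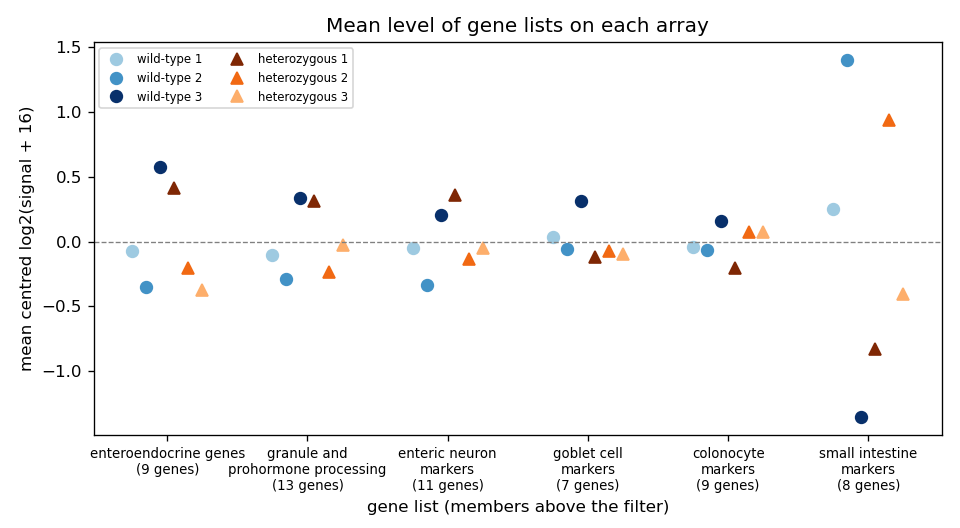
Mean of log2(signal + 16), centred over the 6 arrays, for the tested genes of the members and of 5 other lists (vertical axis, log2 units; circles wild-type, triangles heterozygous). The member, granule and neuronal scores are highest in wild-type replicate 3 and heterozygous replicate 1, where the small intestine score is lowest at -1.36 and -0.83.

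The genes most like Insl5 across the 6 arrays, by Pearson r of log2 signal among 8239 genes, were Galnt3 (0.998), Rap1gap (0.986), Pter (0.982), P4hb (0.977) and Tmem119 (0.968). With 6 arrays that share their mice, these values are descriptions, and wild-type replicate 3 was the highest array for each of the 5 genes. Insl5 was tested only through that array, whose value weighs most in each r. The ranking therefore says mainly which genes were high in wild-type replicate 3. Galnt3, which starts mucin-type glycosylation, read 1450.0 in that mouse and 985.8 to 1125.3 in the others. The most Insl5-like member was Tph1, at place 271 (r = 0.842), and the least was Chga, at place 2196 (r = 0.427).

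Among other gut hormones, 9 of 10 listed genes were on the array and 5 were tested, of which 0 had an unadjusted p under 0.05. Gip, Ghrl, Gast and Iapp were below the filter. Ppy, pancreatic polypeptide, read 122.9, 136.8 and 359.2 in wild-type and 269.9, 95.4 and 78.4 in heterozygous mice, with the same 2 high mice as Pyy. Galanin (Gal), a neuropeptide also of enteric neurons, read 319.6, 355.6 and 704.2 in wild-type and 506.6, 182.1 and 209.4 in heterozygous mice (log2 fold change -0.65, SE 0.39; adjusted p = 0.916, limma). Secretin (Sct) went another way, with 1692.6, 1435.3 and 899.3 in wild-type and 1356.8, 1441.5 and 1384.0 in heterozygous mice, so that wild-type replicate 3 was its lowest. Tac1, the substance P gene of enteric neurons, ranged only from 773.1 to 918.5 (log2 fold change -0.014), with a smaller spread over the arrays than Gcg.

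Of 21 listed transcription factors of the lineage, 16 were on the array, 5 were tested and 11, among them Neurog3, Insm1 and Pax6, were below the filter. The 5 tested, Foxa1, Foxa2, Hhex, Sox4 and Atoh1, gave 0 with an unadjusted p under 0.05, with log2 fold changes of 0.073 for Foxa1, -0.38 for Foxa2, -0.41 for Hhex, -0.11 for Sox4 and 0.044 for Atoh1. Atoh1, which sets the secretory fate shared with goblet cells, read 1576.4, 1221.0 and 2006.2 in wild-type and 2000.3, 1426.4 and 1484.0 in heterozygous mice. These values place Atoh1 with the members, high in wild-type replicate 3 and heterozygous replicate 1.

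Many genes of granules and prohormone processing had the same high mice as the members. Of 13 tested, 9 had wild-type replicate 3 and heterozygous replicate 1 as their 2 highest arrays, against 12.4% of all tested. Cpe, the carboxypeptidase that trims prohormones, read 2937.5, 3088.8 and 4405.6 in wild-type and 3872.7, 3007.7 and 2835.7 in heterozygous mice. Pcsk1, the convertase that cuts proglucagon in L cells and named here after its values were seen, read 190.6, 186.9 and 301.8 in wild-type and 317.2, 169.8 and 251.8 in heterozygous mice. No gene of this list had an unadjusted p under 0.05 between genotypes, with 8 fold changes above 0 and 5 below. The log2 fold change was 0.21 for Scgn, a calcium sensor of endocrine cells, -0.22 for Sytl4, 0.18 for Stx1a and -0.075 for Pam, the peptide-amidating enzyme gene.

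Serotonin handling was the only one of 7 lists on enteroendocrine function with genes at an unadjusted p under 0.05, 2 of 8 tested, against 5.69% of all tested probe sets. Both had lower means in heterozygous colon, and both were without overlap, against 10.4% of all tested. Gch1, which makes the cofactor that TPH1 needs, read 433.2, 377.5 and 295.4 in wild-type and 236.7, 260.2 and 267.3 in heterozygous mice (log2 fold change -0.49, SE 0.16; adjusted p = 0.717, limma). Slc18a1, a vesicular monoamine transporter, read 200.1, 252.3 and 232.3 in wild-type and 199.5, 176.2 and 136.8 in heterozygous mice (log2 fold change -0.40, SE 0.17; adjusted p = 0.873, limma). The nearest Slc18a1 values of the groups were 200.1 and 199.5. Neither gene passed over all probe sets, and Tph1 itself had a log2 fold change of 0.0034. The list's fold changes were above 0 for 4 and below for 4, with 0.13 for Ddc, the decarboxylase that completes serotonin synthesis, 0.069 for Maoa, which breaks serotonin down, and 0.065 for Qdpr, which recycles the cofactor.

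Of nutrient sensors on these cells, 8 of 15 were on the array and 2 were tested, the short-chain fatty acid receptor Ffar2 (log2 fold change 0.010) and the glucose transporter Slc5a1 (-0.35; adjusted p = 0.874, limma), whose groups did not overlap. Of 25 hormone receptors, 20 were on the array and 18 lay below the filter, including those for neurotensin, somatostatin and peptide YY. The receptors tested were the neurotensin-binding sortilin Sort1 (0.079) and the serotonin receptor Htr3a (-0.37, adjusted p = 0.904, limma), whose groups did not overlap either. Over all tested probe sets 10.4% were without overlap. Of 5 peptide-degrading enzymes, 5 were tested and 0 had an unadjusted p under 0.05 (limma), with log2 fold changes of -0.35 for Dpp4, which inactivates glucagon-like peptides, 0.16 for Fap and 0.10 for Ece1. The aminopeptidase gene Anpep had the order of the small intestine markers, with 2066.9 in wild-type replicate 2 and 85.8 in wild-type replicate 3.

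**Figure D5:**
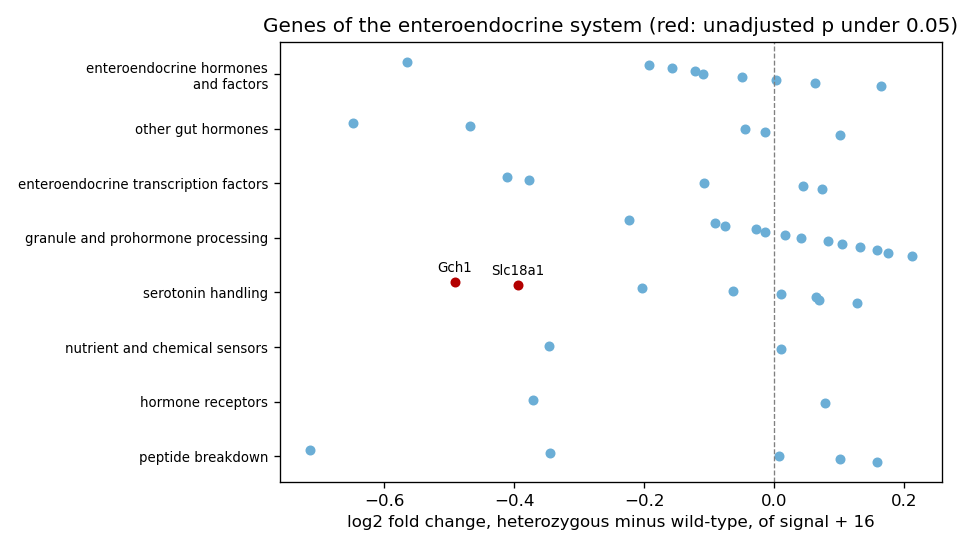
Log2 fold change, heterozygous minus wild-type, of the tested genes among the members and the 7 lists on enteroendocrine function (horizontal axis, log2 units; 1 point per gene, its brightest probe set). Gch1 at -0.49 and Slc18a1 at -0.40, in red, are the genes with an unadjusted p under 0.05.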

How the data were processed

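Total RNA of each colon was amplified and labelled with biotin, per the labels' protocols, and hybridised to an Affymetrix-type array. The deposited intensities, 1 per probe set, were made with GCOS per the submitters' processing notes (the sources used here give no version). The mean of each array, with 2% trimmed from each end, was 500.2, so the authors had scaled the arrays alike, and they were used as deposited. The files give no detection calls or genome build.

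Of 22690 probe sets, 64 were controls, and names came from the platform annotation (20380 with 1 symbol). Log2(signal + 16) entered limma 3.58.1 in R 4.3.3 (lmFit, eBayes with a variance trend, two-sided, Benjamini-Hochberg, threshold 0.05), over the 13576 probe sets with a mean log2 at or above the 40th percentile. A gene of a list was represented by its brightest probe set. Single values were compared by exact two-sided permutation of the difference in means. The fit was also run on simulated data, with independent noise for each probe set and planted shifts larger than any member's fold change. That run does not bear on smaller changes or on variation shared between genes. Members and lists were chosen with earlier results of these data known. Named are all members, up to 3 genes a list by smallest p plus the 2 brightest, the 5 genes most like the most variable member, and Mthfd1; genes given values outside this rule are said to be so. Alternatives covered normalization, pseudocount, filter, variance model, array weights, a small intestine covariate, the replicate block and each array left out. That covariate was the score over all 11 small intestine markers on the array. The number of arrays limits the precision.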

Additional observations from a re-analysis of the deposited data

How the results depend on the processing

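No member probe set passed the adjusted threshold under any alternative run, and Gcg kept its direction in 17 of 17, with -0.27 to -0.028 when 1 array was left out. Over all probe sets the adjusted count, 0 as reported, was 2 with a filter at the 20th percentile, 8 with robust variance, 4 with array weights, 13 with the small intestine covariate and 0 to 39 with 1 array left out (39 without heterozygous replicate 1, 2 without wild-type replicate 3). The unadjusted count, 772, was 1395 with no filter, 443 at the 60th percentile and 444 to 1037 with 1 array left out (444 without heterozygous replicate 3). With 1 array left out, 0 to 1 members had an unadjusted p under 0.05 (Nts) and 0 to 2 did not overlap (Nts and Pyy, without heterozygous replicate 1). Without that array, 1000 of the 13576 tested probe sets had an unadjusted p under 0.05 (limma). The share of all probe sets without overlap was not counted in that run, and fewer arrays separate more readily. Of 11 member fold changes, 7 were below 0 as reported and 10 with the small intestine covariate. With 1 array left out, 11 were below 0 without wild-type replicate 2 or heterozygous replicate 1. The count was 5 without heterozygous replicate 2 or 3, and 1 without wild-type replicate 3. The log2 fold changes that turned sign with 1 array left out ran from -0.56 to 0.078 for Pyy, -1.24 to 0.37 for Insl5, -0.16 to 0.38 for Sst, -0.41 to 0.21 for Nts, -0.26 to 0.27 for Chga, -0.34 to 0.052 for Chgb, -0.24 to 0.27 for Tph1, -0.19 to 0.21 for the dimmer Neurod1 probe set and -0.24 to 0.056 for the brighter, and -0.44 to 0.081 for Cck. With the covariate Chga was -0.00050, Tph1 -0.092 and the dimmer Neurod1 probe set -0.012, Tph1 was -0.00074 with a pseudocount of 64, and Neurod1 was 0.042 when read by its dimmer probe set in place of the brighter. The cause was not tested. With the replicate block, 0 probe sets passed after adjustment and 921 before it, with 0 members among them. Same-numbered mice correlated at -0.12, 0.49 and 0.042 in their deviations, and differently numbered mice at -0.47 to 0.42. These values do not settle whether the numbers mark pairs.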
